A study of Mus musculus with 3 samples.

Results

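Localized electroporation of mouse neural progenitors was compared with a control at the level of single cells. The cells compared were all barcodes of the localized electroporation and control libraries with at least 3000 UMIs (unique transcript molecules counted), at least 500 genes and at most 20% of UMIs from mitochondrially encoded genes. This left 6298 localized and 6091 control cells, 12389 of 17920 cells that met the same limits in the whole series, where a library of bulk electroporation held the other 5531. Progenitors came from brains of postnatal day 1 mice of a strain and genotype that the labels do not give. The neural stem cells, as the labels call them, had been grown as neurospheres with 20 ng/mL human epidermal growth factor and were taken up with trypsin 4 h after treatment. Localized cells lay on a device coated with poly-D-lysine and received 400 pulses of 20 V through it. The labels do not say whether control cells lay on a coated dish or on a device, so effects of the device and of the pulses cannot be told apart. No cargo is named. With 1 library per group nothing here was checked in replicates, no test was possible, and all intervals cover counting error only, not the spread between libraries.

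The localized library held 76177026 UMIs in cells and the control 61775756. Median depth was 10980.5 UMIs per localized cell and 9542 per control cell, and median genes per cell were 3258 and 2819. The median mitochondrial share was 3.42% and 3.44%. UMIs outside cells made up 9.10% of all 83803032 localized and 17.0004% of all 74429007 control UMIs. The libraries shared 6 cell barcodes. Few barcodes lay at the limit: 39 localized and 95 control barcodes held 3000 to 3500 UMIs, and 46 and 74 held 2500 to 3000. The labelled cell type was checked against its markers. Sox2, a neural stem cell factor, stood at 363 CPM (UMIs summed over cells, relative to the library's total) in localized and 303 CPM in control cells, the progenitor filament gene Nes at 296 and 327 CPM, and the radial glia lipid carrier Fabp7 at 6185 and 3764 CPM. The lists for ependymal, microglial, endothelial, erythroid, and mural or fibroblast cells had no member at 5 CPM. Ependymal genes summed to 7.80 CPM in localized and 7.79 CPM in control cells, endothelial genes to 3.82 and 2.72 CPM, and the other 3 lists to at most 1.48 CPM. The microglial genes C1qa, C1qb, C1qc, Aif1 and Tyrobp and the endothelial gene Cldn5 had 0 UMIs in the cells of both libraries. Neuron genes were detected in part: 3 of 12 reached 5 CPM, and the list summed to 224.6 CPM in localized and 242.0 CPM in control cells.

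The lowest ratios of the comparison lay among genes of the integrated stress response. In this pathway kinases that sense amino acid shortage, unfolded protein, heme shortage or viral RNA phosphorylate the initiation factor eIF2, which slows translation in general but favours translation of the transcription factor ATF4. ATF4 and its partner CHOP, encoded by Ddit3, then raise genes for amino acid supply, transfer RNA charging and feedback. Many ATF4 target genes carry a composite element that joins parts of a C/EBP site and an ATF site.

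Promoters of these genes were searched for the composite element TGATGNAA on either strand, in 250 bases before to 50 bases after the RefSeq start (GRCm38.p6). Of 61 measured genes of the integrated stress response lists, 48 had a promoter entry and 15 of those held the element, against 198 of 7806 genes of at least 5 CPM (2.54%) and 4.51% of all 27025 genes with an entry. The lists were put together from genes known for this pathway, so this share follows in part from how they were chosen. The element was found in 7 of 19 listed genes that stood at least 2-fold lower in the localized library and in 8 of 29 that did not, where 0.91% of all genes of at least 5 CPM were that much lower. It was found in 0 of 14 mitochondrial synthetase, 0 of 14 circadian clock and 0 of 6 Fos and Jun promoters. In Trib3 it began 14 bases after the start. The 6 windows below are those of the listed genes at least 2-fold lower in which the element lay before the start, and capitals mark the element or its reverse complement.
Chac1 (chr2:119351004-119351101, plus strand): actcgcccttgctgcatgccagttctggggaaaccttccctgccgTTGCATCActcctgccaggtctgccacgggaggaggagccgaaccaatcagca
Atf3 (chr1:191183391-191183488, minus strand): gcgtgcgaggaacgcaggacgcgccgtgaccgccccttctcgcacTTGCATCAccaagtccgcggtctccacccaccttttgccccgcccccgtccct
Nupr1 (chr7:126625528-126625625, minus strand): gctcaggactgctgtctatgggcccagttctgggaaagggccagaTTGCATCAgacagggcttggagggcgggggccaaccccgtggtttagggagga
Pck2 (chr14:55540118-55540215, plus strand): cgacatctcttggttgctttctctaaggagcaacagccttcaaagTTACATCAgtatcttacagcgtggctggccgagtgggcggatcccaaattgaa
Vldlr (chr19:27216775-27216872, plus strand): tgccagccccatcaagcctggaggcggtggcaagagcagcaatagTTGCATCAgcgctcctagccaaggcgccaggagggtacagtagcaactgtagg
Asns (chr6:7693210-7693277, minus strand): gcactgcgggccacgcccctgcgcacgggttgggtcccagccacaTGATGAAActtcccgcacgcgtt
The element began 193 bases before the start in Chac1, 110 in Atf3 and Nupr1, 103 in Pck2, 200 in Vldlr and 23 in Asns. Windows of Atf4, Ddit3, Gdf15, Sesn2, Mthfd2 and Slc3a2, which were also at least 2-fold lower, did not hold these letters, which says nothing on whether ATF4 acts on them.

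Factors and feedback genes of the integrated stress response were all lower in the localized library. Of 17 members, 16 reached 5 CPM in either library, and all 16 lay below 0 in their log2 ratio (localized over control CPM, 1 CPM added to each). The median was -1.60, and 14 members passed 2-fold. Over all 9776 genes of at least 5 CPM, 0.91% were at least 2-fold lower, 33.6% had a ratio below 0 and the median was 0.13. Trib3 and Chac1 met the minimum in control alone and were lower by that rule. The 14 members at 5 CPM in both libraries had a median of -1.48, and 12 of them were at least 2-fold lower.

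Chac1, which degrades glutathione, stood at 1.798 CPM (exact Poisson interval 1.51 to 2.13) in localized cells and 71.9 CPM (69.8 to 74.0) in control cells, from 137 and 4441 UMIs. Its log2 ratio of -4.70 was the lowest of all genes at 5 CPM. Trib3, a pseudokinase that restrains ATF4 and CHOP (chromosome 2, 152337422 to 152344032, minus strand, GRCm38), stood at 1.05 CPM against 37.0 CPM, a log2 ratio of -4.21. Bulk electroporation, measured in the same series, stood between the other libraries for both genes, at 14.8 CPM for Chac1 and 8.56 CPM for Trib3.

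Ddit3 stood at 19.7 CPM in localized, 48.7 CPM in bulk and 217 CPM in control cells. Gdf15, a secreted stress cytokine, had 11.2 CPM against 118.9 CPM in control, and Atf3, a stress-induced repressor, 5.38 against 59.4 CPM. Nupr1, a stress-induced chromatin protein, had 6.27 against 37.9 CPM. These 4 genes had log2 ratios from -3.39 to -2.42.

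Atf4 itself lies on the plus strand of chromosome 15 (80255184 to 80257541). Its level was 104 CPM (102.1 to 106.7) in localized cells and 327 CPM (322.3 to 331.4) in control cells, with 177 CPM in bulk. Its log2 ratio was -1.64. Sesn2 and Ddit4, which restrain the growth kinase complex mTORC1, had -1.85 and -1.57, and Eif4ebp1, which binds the cap-binding factor, had -1.18. Ppp1r15a, the inducible subunit that returns eIF2 to its unphosphorylated state, had -1.25. The members nearest to 0 were Atf5 at -0.97 and Cebpb at -0.51, both transcription factors. The levels of both libraries are shown in the plot of control against localized CPM.

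**Figure D1:**
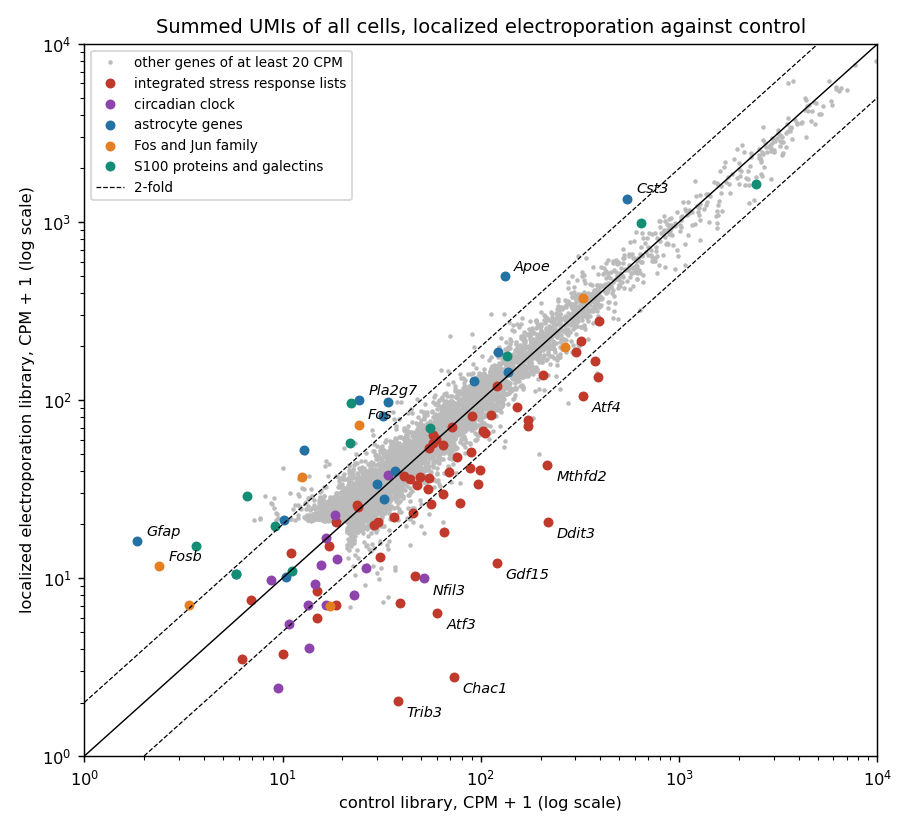
Summed UMIs of all cells as CPM + 1 on log axes, control on the x axis and localized electroporation on the y axis. Each point is a gene of at least 20 CPM in either library or a list member of at least 5 CPM, solid and dashed lines mark equal levels and 2-fold differences, and Chac1 and Trib3 lie farthest below the lines with Gfap farthest above.

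The difference in the stress response was spread over many control cells rather than a few. When 3000 UMIs were drawn from every cell, which left out none, localized cells held a median of 9 UMIs of the 64 integrated stress response genes (10th to 90th percentile 5 to 15) and control cells a median of 16 (7 to 29). The spread was wider in control, with an SD over cells of 8.63 UMIs against 4.49. Of localized cells 6.46% lay above the control median, and of control cells 47.8% did. Of control cells 22.5% (exact binomial interval 21.5 to 23.6) held 9 UMIs or fewer, the range of the lower 59.7% of localized cells. The libraries thus overlapped at low counts, and few localized cells reached the high counts of control.

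**Figure D2:**
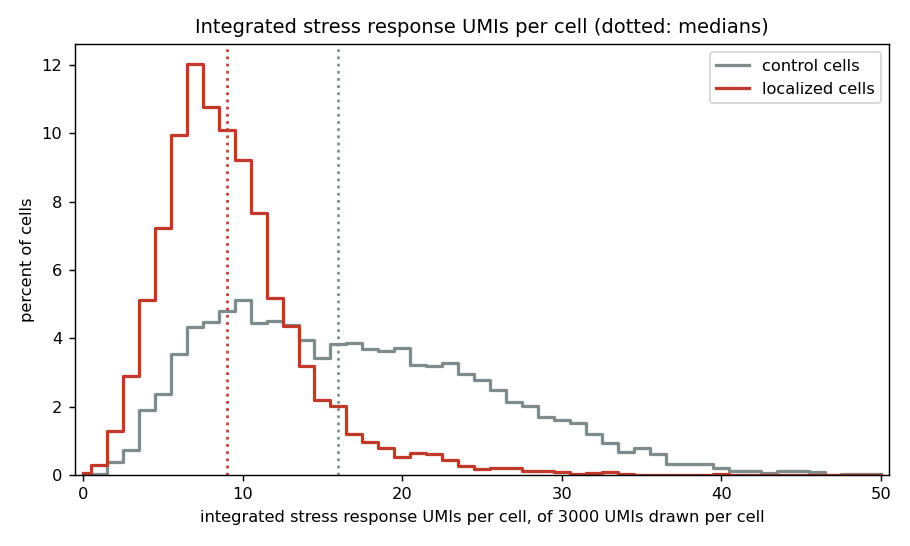
Percent of cells (y axis) by the number of integrated stress response UMIs among 3000 UMIs drawn per cell (x axis), for 6298 localized and 6091 control cells, with dotted lines at the medians of 9 and 16. Localized cells form a narrow peak and control cells a broad distribution that reaches above 30.

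Shares of cells with a UMI followed the same order. Among 3000 UMIs per cell, a Chac1 UMI was found in 0.54% of localized and 16.7% of control cells, and in 1.64% and 39.1% without thinning. For Atf4 the shares were 25.7% and 56.1%, and 62.4% and 83.6% without thinning. For Ddit3 they were 5.19% and 37.0%, and 17.1% and 60.0% without thinning. No cell class here is known to lack these genes, so the part of free RNA in the shares was not tested. In barcodes of 10 to 100 UMIs, which hold mostly free RNA, Ddit3 stood at 30.4 CPM in localized and 137.9 CPM in control and Atf4 at 113 and 448 CPM, so free RNA differed in the same direction as the cells. With 10% of each library's UMIs taken away as free RNA, 23 integrated stress response genes were at least 2-fold lower, against 24 of 61 measured without that step.

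**Figure D3:**
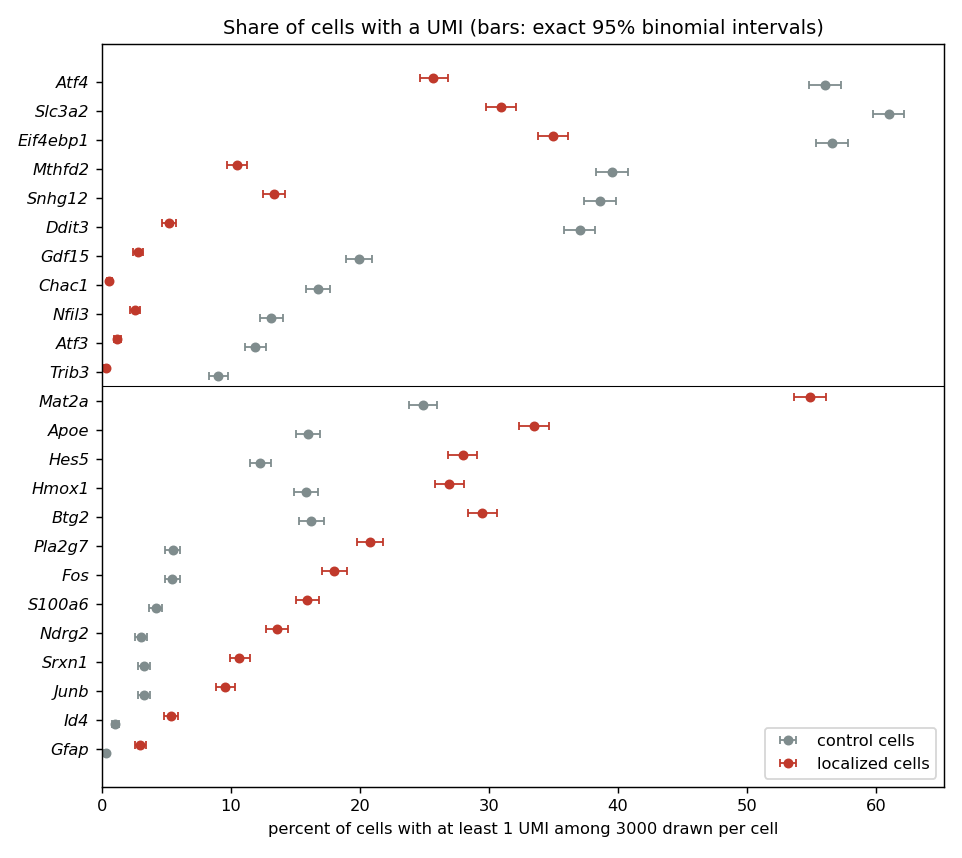
Percent of cells with at least 1 UMI of each gene among 3000 UMIs drawn per cell, with exact 95% binomial intervals, for localized and control cells. The genes above the line were lower and those below it higher in the localized library. They were picked from genes that differed, and the intervals cover counting error only, not the spread between libraries.

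Genes that act on amino acids were lower too, but unevenly. Cytosolic transfer RNA synthetases, which charge transfer RNAs with amino acids, had a median log2 ratio of -0.52 over 20 measured members, 17 of them below 0. Sars at -1.16 and Cars at -1.12 were at least 2-fold lower. Aars, Yars, Gars and Nars lay between -0.80 and -0.70. Those for glutamine (Qars, 0.15), valine (Vars, 0.15), aspartate (Dars, 0.03) and histidine (Hars, -0.02) lay near 0. Mitochondrial synthetases, encoded by separate nuclear genes, did not share the difference: 11 of 16 measured members were above 0, the median was 0.19, and all lay between -0.44 and 0.46. Lars2 among them stood at 230 CPM in localized and 236 CPM in control cells but at 5033 and 7495 CPM in barcodes of 10 to 100 UMIs, so its level in cells is uncertain.

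Enzymes of serine, asparagine and one-carbon metabolism had a median of -0.58 over 15 members, 5 of them at least 2-fold lower. Mthfd2, a mitochondrial folate enzyme (chromosome 6, 83305691 to 83325908, minus strand), stood at 42.0 CPM in localized, 103.9 CPM in bulk and 215 CPM in control cells, a log2 ratio of -2.33. Pck2, the mitochondrial form of phosphoenolpyruvate carboxykinase, had 9.23 against 45.3 CPM, and asparagine synthetase, Asns, 70.8 against 172 CPM. Cth and Aldh1l2 had log2 ratios of -1.43 and -1.33 and met the minimum in control alone. The cytosolic enzymes Mthfd1 at -0.13 and Shmt1 at 0.12, and Psph at -0.01, lay near 0. Phgdh and Psat1, which open serine synthesis, had -0.50 and -0.58.

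Of 12 amino acid transporters, 10 were measured, with a median of -0.70, and 3 were at least 2-fold lower. Slc3a2, the heavy chain shared by several exchangers, stood at 133 CPM in localized and 390 CPM in control cells, a log2 ratio of -1.54. Slc7a1, which imports arginine and lysine, had -1.53, and Slc7a5, the leucine exchanger that pairs with Slc3a2, had -1.08. Slc7a11, the cystine importer, had -0.55, while Slc7a6 had 0.33 and Slc1a5 0.11.

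The kinases that start the response were not lower. Eif2ak1, Eif2ak2, Eif2ak3 and Eif2ak4 had log2 ratios of 0.34, 0.23, 0.29 and 0.40, from levels between 7.04 and 27.0 CPM, and Eif2s1, the subunit they phosphorylate, had 0.24. Of the phosphatase subunits, Ppp1r15b had -0.48 and the catalytic ones lay between -0.06 and 0.24. The unfolded protein response of the endoplasmic reticulum shares the kinase Eif2ak3 with this pathway. Its 19 measured genes had a median of -0.09, with 1 at least 2-fold lower: Herpud1, a membrane protein of protein disposal, at -1.52, with 50.7 CPM in control. The chaperones Calr at -0.78, Hsp90b1 at -0.58 and Hspa5 at -0.50 lay below 0, while Xbp1 was at -0.13 and Dnajb9 at 0.03.

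**Figure D4:**
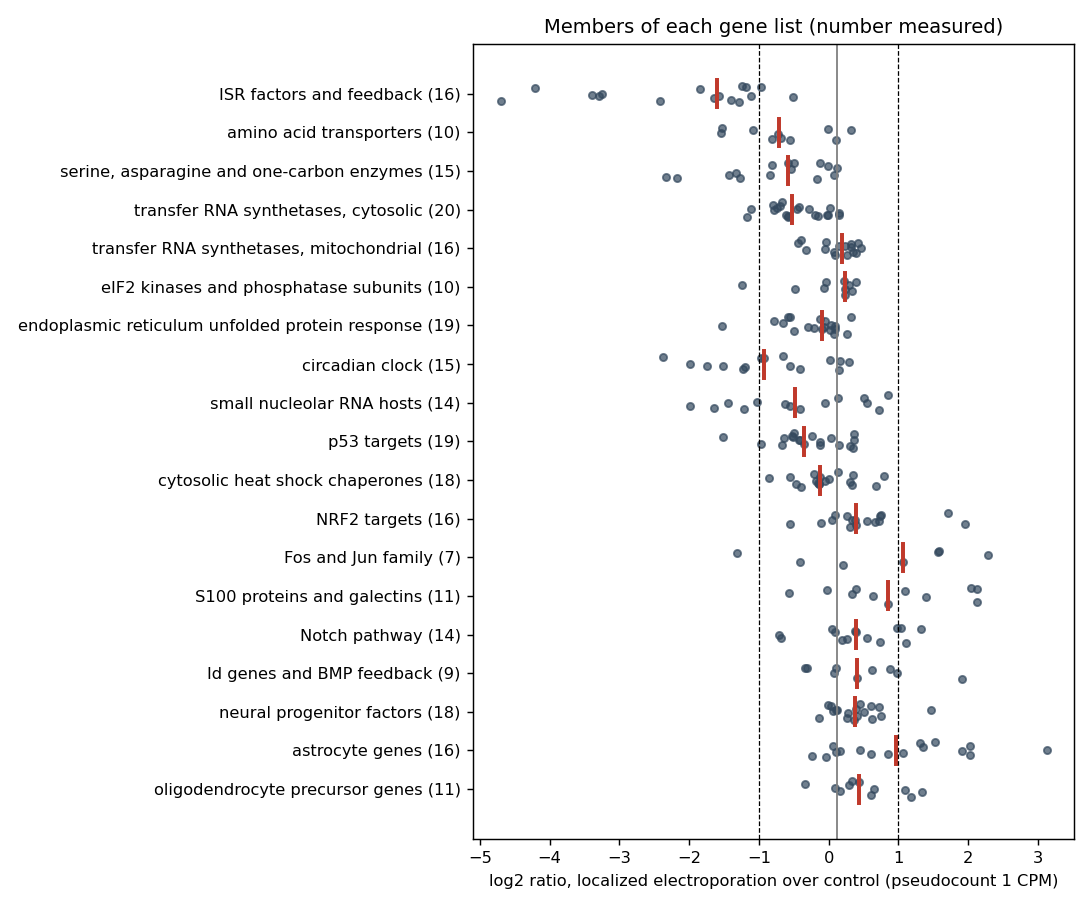
Log2 ratio of localized electroporation over control (x axis, 1 CPM added) for each measured member of 19 gene lists (rows), with the list's median as a red bar, the median of all genes of at least 5 CPM as a grey line and 2-fold as dashed lines. The stress response lists and circadian clock genes lie to the left, and astrocyte, S100 and Fos and Jun genes spread to the right.

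The factors of the stress response were lower in every cluster of at least 50 cells per library and at every depth, with 15 of 16 or 16 of 16 ratios below 0 in each. Over 6 clusters, made after leaving out 1718 genes with a 1.5-fold or larger library difference, the median ratio of its factors ranged from -1.99 to -1.44, and over 5 ranges of UMIs per cell from -1.74 to -1.18. Atf4 lay between -1.71 and -1.58 in the clusters, and Chac1 between -5.04 and -4.14. Atf3 moved most with depth: its ratio was -0.56 in cells of 3000 to 6000 UMIs (51 and 155 UMIs, 21.0 and 31.5 CPM) and -4.09 in cells of 16000 UMIs and more (71 and 711 UMIs, 2.88 and 65.2 CPM). In localized cells Atf3 was thus higher in shallow than in deep cells, and in control cells the reverse. Ranges of depth also differ in their mix of clusters, and the part of that mix was not tested.

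**Figure D5:**
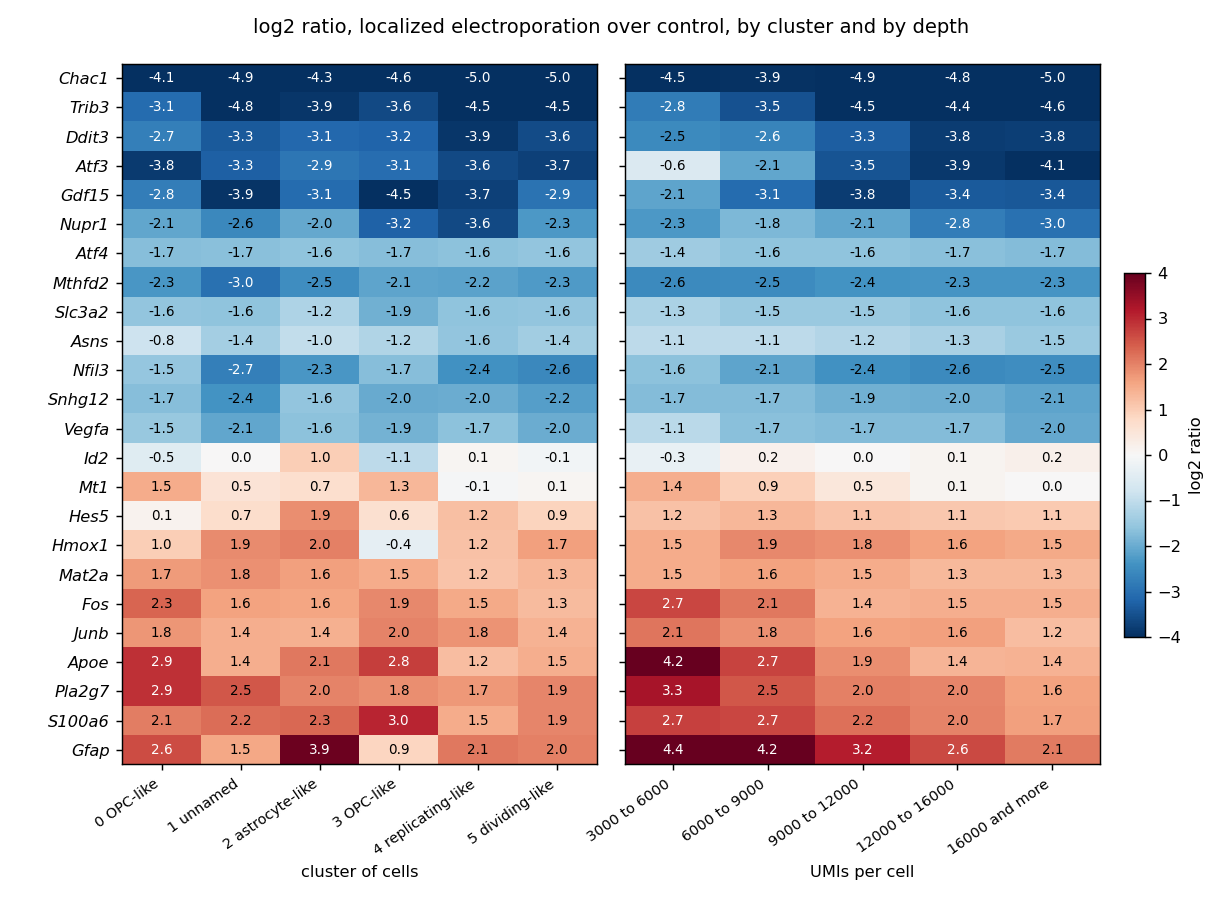
Log2 ratios of localized electroporation over control for 24 genes (rows) within 6 clusters of cells (left, OPC-like meaning oligodendrocyte precursor-like) and within 5 ranges of UMIs per cell (right), with blue for lower and red for higher in localized cells. Stress response genes are blue in every column, while Id2, Mt1, Hes5 and Hmox1 vary between columns.

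Genes of the circadian clock formed another lower group. The clock runs on the activators encoded by Arntl and Clock, which drive their own repressors and output factors. Of 16 members 15 were measured, with a median of -0.93, and 6 were at least 2-fold lower. Nfil3, a repressor that opposes the D-box activators (chromosome 13, 52967209 to 52981073, minus strand), stood at 8.97 CPM in localized, 12.7 CPM in bulk and 50.46 CPM in control cells. A Nfil3 UMI was found in 2.52% of localized and 13.1% of control cells among 3000 UMIs, and in 9.54% and 32.3% without thinning. The repressors Ciart, Bhlhe41 and Bhlhe40 had log2 ratios of -1.98, -1.75 and -1.20, and the nuclear receptors Nr1d1 and Nr1d2 had -1.51 and -1.22. Per1 had -0.96 and Dbp, an output activator, -0.93. The activators did not share this: Arntl had 0.30 and Clock 0.16, and Per3 had 0.15. Per1, Ciart and Bhlhe41 met the minimum in control alone, and the 12 members present in both libraries had a median of -0.60. Most members were at low levels, under 26 CPM in both libraries apart from Nfil3 and Clock.

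Small nucleolar RNA host genes, whose introns carry guide RNAs for ribosome maturation, split. Snhg12 stood at 48.5 CPM in localized and 196 CPM in control cells (log2 ratio -1.99), and Snhg5 (-1.64), Snhg1 (-1.44), Snhg17 (-1.21) and Snhg15 (-1.02) were also at least 2-fold lower. Snhg20 at 0.85, Snhg3 at 0.72 and Snhg4 at 0.55 lay on the other side. Vegfa, an angiogenic growth factor, had -1.74 and Ero1l, an oxidase of protein folding, -1.27, while the 22 measured hypoxia and glycolysis genes had a median of -0.08. Klf4, a transcription factor, had 9.32 against 50.02 CPM. Outside the lists, Rab3b, a vesicle protein, had -1.52, Gap43, a growth cone protein, -1.20, and G0s2, an inhibitor of lipolysis, -1.19. Among p53 targets 13 of 19 were below 0 with a median of -0.36, where 33.6% of all genes of at least 5 CPM were below 0. Gadd45a at -1.51 was the member at least 2-fold lower. Plk3 and Pmaip1 met the minimum in control alone, and the 17 members present in both libraries had a median of -0.24.

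Taking the 5906 genes that reached 20 CPM in localized or control cells, 132 (2.24%) passed 2-fold, 60 (1.02%) as lower and 72 (1.22%) as higher, and higher genes were 54.5% of those past 2-fold. With median-of-ratios scaling, which moved the ratios of all genes by 0.068 (log2), 68 were lower and 54 higher, and higher genes were 44.3% of those past 2-fold. Over genes of at least 5 CPM 1.62% were at least 2-fold higher.

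Among higher genes, the Fos and Jun family, which forms the early response factor AP-1, was divided. Fos, on the plus strand of chromosome 12 (85473890 to 85477273), had 71.5 CPM (69.7 to 73.5) in localized, 18.9 CPM in bulk and 23.3 CPM (22.1 to 24.5) in control cells, a log2 ratio of 1.58. Fosb had 10.7 against 1.39 CPM, Junb 35.9 against 11.5 CPM and Fosl1 6.06 against 2.36 CPM. Fosb and Fosl1 met the minimum only through localized cells, which made them higher. Jun at -0.41 and Fosl2 at -1.31 lay on the other side. A Fos UMI was found in 18.0% of localized and 5.42% of control cells among 3000 UMIs, and in 42.1% and 16.8% without thinning, with free RNA at 50.6 and 21.0 CPM. Fos was higher in all 6 clusters, by 1.26 to 2.32 on the log2 scale. Of 17 other early response genes, Zfp36 (1.26) and Btg2 (1.10), which speed messenger RNA decay or slow growth, were at least 2-fold higher, while Egr1 had 0.22, Ier2 0.40 and Nr4a1 -0.42. Zfp36, Egr3 and Nr4a2 met the minimum in localized cells alone, and of the 14 early response genes present in both libraries 1 was at least 2-fold higher and 1, Klf4, at least 2-fold lower (-2.31), with a median of -0.21. Feedback genes of growth factor signalling lay between -0.44 and 0.23.

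Targets of NRF2, the regulator of antioxidant genes, were mostly higher. Of 16 measured, 14 had ratios above 0 (66.4% of all genes of at least 5 CPM did), with a median of 0.39, and 2 were at least 2-fold higher. Hmox1, which degrades heme, stood at 228 CPM (224.6 to 231.4) in localized, 81.9 CPM in bulk and 68.9 CPM (66.8 to 71.0) in control cells. Srxn1, which repairs peroxiredoxins, had 49.4 against 12.04 CPM. Gclc, Gclm and Gsr, which make and reduce glutathione, had 0.75, 0.66 and 0.73, and Txnrd1 had 0.55. Slc7a11, which NRF2 and ATF4 share as a target, was below 0 at -0.55. Hmox1 was higher in 5 of 6 clusters but had -0.37 in cluster 3, an oligodendrocyte precursor-like cluster with 78 and 123 Hmox1 UMIs.

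The S100 proteins and galectins, small calcium-binding and sugar-binding proteins, included 5 of 11 measured genes at least 2-fold higher. S100a6 stood at 94.96 CPM in localized and 21.0 CPM in control cells (2.12), and Lgals3 had 27.9 against 5.62 CPM (2.13), S100a4 14.1 against 2.65 CPM and S100a13 56.4 against 20.9 CPM. Lgals1, the most abundant, was lower at 1637 against 2439 CPM. S100a4 and S100b met the minimum in localized cells alone, and of the 9 members present in both libraries 4 were at least 2-fold higher, with a median of 0.64. S100a6 in barcodes of 10 to 100 UMIs stood at 92.9 CPM in localized, close to its level in cells, and at 14.4 CPM in control, below its level in cells.

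Astrocyte genes were higher as a group, with a median of 0.96 over 16 measured and 8 at least 2-fold higher. Gfap, the astrocyte filament (chromosome 11, 102887336 to 102900912, minus strand), stood at 15.2 CPM in localized, 1.57 CPM in bulk and 0.84 CPM in control cells, from 1155 UMIs in localized and 52 in control cells, and met the minimum in the localized library alone. Among clusters its highest ratio, 3.92, was in the astrocyte-like cluster, where 847 localized and 28 control UMIs were found. Apoe, a lipid carrier (chromosome 7, 19696109 to 19699188, minus strand), stood at 497 CPM (492.0 to 502.0) in localized, 170 CPM in bulk and 131 CPM (128.3 to 134.0) in control cells. Among 3000 UMIs per cell an Apoe UMI was found in 33.5% of localized and 15.9% of control cells, and in 56.5% and 31.9% without thinning. Its ratio was above 1.22 in all 6 clusters. It reached 4.22 in cells of 3000 to 6000 UMIs, 1030 against 54.2 CPM, and was 1.39 in cells of 16000 UMIs and more. The highest Apoe ratio within a cluster was 2.91. Clusters differed in depth, with medians in cluster 0 of 7331 UMIs in localized and 4940 in control cells. Ranges of depth thus also differ in their mix of clusters.

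Pla2g7, a lipid-cleaving enzyme, had 98.5 against 23.4 CPM, Ndrg2 51.4 against 11.9 CPM, Ttyh1 96.4 against 32.9 CPM and Cst3, a secreted protease inhibitor, 1350 against 546 CPM. Aqp4, the astrocyte water channel, had a log2 ratio of 1.06, and of 0.9993 under median-of-ratios scaling. The transporter Slc1a2 was the lowest of the list at -0.23, and Slc1a3 had -0.01, so the group was not uniform. The 14 members present at 5 CPM in both libraries had a median of 0.84.

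Genes of the progenitor state were mostly higher, by smaller ratios. Of 18 progenitor factors 16 lay above 0 (14 under median-of-ratios scaling), with a median of 0.38. Over all genes of at least 5 CPM, 66.4% lay above 0 and the median was 0.13. Hopx, a stem cell cofactor, at 36.6 against 12.6 CPM was the member past 2-fold, and the filament gene Nes was lowest at -0.14. Notch signalling, which holds progenitors undifferentiated, had 12 of 14 measured genes above 0 with a median of 0.39. Its target Hes5 stood at 197 CPM in localized, 30.4 CPM in bulk and 90.9 CPM in control cells, and the feedback gene Nrarp (1.32) and ligand Dll3 (1.03) were also at least 2-fold higher. Dll3 had 0.97 under median-of-ratios scaling and 0.73 with every cell weighted equally. The Notch target Hes1 and the ligand Jag1 lay below 0 at -0.69 and -0.72. Hes5 had a ratio of 1.85 in the astrocyte-like cluster (276 against 75.8 CPM) and 0.15 in oligodendrocyte precursor-like cluster 0 (69.5 against 62.7 CPM). Of the Id genes, which block neural basic helix-loop-helix factors, Id4 had a log2 ratio of 1.91 and met the minimum in localized cells alone, and Id1 had 272 against 137 CPM and Id3 624 against 338 CPM. Id2 had 0.08 over all cells, from 0.98 in the astrocyte-like cluster to -1.05 in cluster 3.

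The oligodendrocyte precursor genes Sox10, Bcas1 and Gpr17 had ratios of 1.34, 1.18 and 1.10, with a median of 0.44 over 11 measured. Lhfpl3, the lowest of that list, lay on the other side at -0.33. The neurofilament genes Nefl and Nefm had 2.31 and 1.82, where Nefl met the minimum in localized cells alone. With every cell weighted equally 1 oligodendrocyte precursor gene was past 2-fold, Sox10 at 1.00 with Bcas1 at 0.69, and with cells thinned to 3000 UMIs 0 were. In the methionine cycle, Mat2a, which makes the methyl donor S-adenosylmethionine (chromosome 6, 72432799 to 72439558, minus strand), stood at 304 CPM (300.2 to 308.0) in localized, 183 CPM in bulk and 111.5 CPM (108.9 to 114.2) in control cells. A Mat2a UMI was found in 54.9% of localized and 24.9% of control cells among 3000 UMIs, and in 88.0% and 53.6% without thinning. It was higher in all 6 clusters by 1.15 to 1.82, whereas the other 13 measured genes of that list lay between -0.27 and 0.51. Other genes among the 25 highest ratios of at least 50 CPM included Aldh1a3 (1.39), a retinaldehyde dehydrogenase, Pdlim4 (1.38), Gabbr1 (1.36), a GABA receptor subunit, Mgst1 (1.25) and Gstm1 (1.22), both glutathione transferases, and Cd9 (1.21).

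Metallothioneins, which bind zinc and copper, differed by depth and cluster. Mt1 had 3414 against 2634 CPM over all cells, a log2 ratio of 0.37. In cells of 3000 to 6000 UMIs it had 1.44, and in cells of 16000 UMIs and more 0.0055. Ranges of depth also differ in their mix of clusters, so depth and cluster were not told apart for Mt1. In cluster 0 Mt1 had 1.49 and in the replicating-like cluster -0.06.

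Heat shock chaperones lay below all genes, with no member past 2-fold. Of 18 members 11 had ratios below 0, where 33.6% of all genes of at least 5 CPM did. Their median was -0.13, and the list summed to 7544 CPM in localized and 8945 CPM in control cells. Among 3000 UMIs per cell the median was 22 chaperone UMIs in localized and 26 in control cells. Mitosis genes were also on the lower side, with 18 of 25 below 0, a median of -0.18, none past 2-fold and Top2a lowest at -0.56. Other groups had medians nearer to the 0.13 of all genes. Membrane repair genes had 0.20 with Anxa2 highest at 1.00, and BCL2 family genes 0.22. YAP targets had 0.03, ion pumps and osmotic stress genes 0.06, NF-kB feedback genes 0.05 and DNA replication genes 0.02, and these 4 medians turned negative under median-of-ratios scaling. Of 20 interferon response genes 4 were measured, with 0 past 2-fold in either direction. Mitochondrially encoded genes had a median of -0.01 but mt-Nd4l at 1.07, mt-Atp8 at 0.80 and mt-Nd3 at -0.60. Mt-Nd4l and mt-Atp8 overlap neighbouring genes, so reads between them may be assigned uncertainly.

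Clusters were named from markers: 17.4% of localized (16.4 to 18.3, exact binomial) and 20.7% of control cells (19.7 to 21.8) were oligodendrocyte precursor-like, and 27.4% and 20.7% astrocyte-like. Replicating-like cells made up 25.8% and 20.2%, and dividing-like cells 19.2% and 22.9%. Cluster 1 stayed unnamed and held 592 localized and 934 control cells. A further unnamed cluster, led by Rdh5, Fbxo2 and Prr5l, held 54 localized and 8 control cells. Control cells of cluster 0 had a median of 4940 UMIs and localized cells of it 7331, so the limit of 3000 UMIs lay closer to the control cells there. Shares depended on the clustering. The astrocyte-like share was 33.3% and 33.0% at resolution 0.3 and 20.1% and 12.6% at 0.8. The replicating-like share was 7.59% and 3.38% at resolution 0.8, and 23.3% and 10.7% when all variable genes were used. At 0.8 a cluster led by Hist1h1b, Hist1h1a and Brca1, also leading genes of the main replicating-like cluster, stayed unnamed. It held 14.0% of localized and 9.70% of control cells. Another unnamed cluster, led by histone genes, held 8.80% and 13.5%. These clusters had 0 listed markers among their leading genes, and the main replicating-like cluster had 1. The named share at 0.8 may thus miss replicating cells. The dividing-like share with all variable genes was 19.5% and 31.03%.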

How the data were processed

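The deposited matrices give raw UMI counts of 32285 genes for all barcodes, empty ones included. The submitters' processing notes name the build GRCm38 and the tools Seurat 4.0.4 and Cell Ranger 6. Per the file headers, the matrices were written by Cell Ranger 4. The annotation's release is not given in the sources used here. Members and gene lists were chosen with earlier results of these data known.

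UMIs were summed over the cells of a library and scaled to an equal total (CPM). A pseudocount of 1 CPM was added before taking log2 ratios and shrinks those of low genes. Counts over all genes took a minimum of 20 CPM in either library, and lists 5 CPM. The rule for genes named in the text took the 25 highest and 25 lowest ratios among genes reaching 50 CPM (predicted, Riken and ribosomal protein genes left out) and members of 47 lists. Rdh5, Fbxo2, Prr5l, Hist1h1b, Hist1h1a and Brca1 were named as leading genes of clusters rather than by this rule, after their values were seen. Sums carry exact Poisson and shares carry exact Clopper-Pearson intervals (95%). For shares of cells, each cell was thinned to 3000 UMIs. Free RNA was read from barcodes of 10 to 100 UMIs. Clustering used 2000 variable genes, 30 principal components, 15 neighbours and Leiden resolution 0.5. Doublets were not removed. Of localized cells 2.75% (2.36 to 3.18) and of control cells 1.12% (0.868 to 1.41) held more than 25000 UMIs.

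The calculations were tested on simulated data. Coordinates come from GENCODE vM21 on GRCm38 and promoters from RefSeq on GRCm38.p6. Python 3.11.15, NumPy 2.4.6, SciPy 1.17.1, pandas 2.3.3, Scanpy 1.11.5 and python-igraph 0.11.9 were used. Alternatives were other scalings, minimums, pseudocounts, cell filters, depths, a free RNA correction, clusterings and, chosen after seeing the data, leaving out oligodendrocyte precursor-like cells.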

Additional observations from a re-analysis of the deposited data

How the results depend on the processing

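The number of genes at least 2-fold higher in the localized library was 158 with a minimum of 5 CPM, 28 with 50 CPM, 211 with no minimum and 133 within the largest cluster, against 72. The number at least 2-fold lower was 34 with 50 CPM and 112 with no minimum, against 60. Under the other alternatives the higher genes numbered 54 to 82 and the lower genes 57 to 89. Integrated stress response genes at least 2-fold lower numbered 17 to 26 over the alternatives, against 24. Of 458 named or listed genes with a ratio under 10 alternatives each, none that passed 2-fold changed sign. Only genes past 2-fold were checked for this, and a change of scaling or pseudocount could hardly reverse them. Ratios lay outside their counting interval for 302 of the 458 genes under median-of-ratios scaling and 343 within the largest cluster. They did so for 240 with cells thinned to 3000 UMIs and 217 with 10% free RNA taken away. Under the other alternatives 0 to 185 did. The counting intervals took no pseudocount, whereas the main ratios carried 1 CPM. Main ratios of low genes could thus lie outside their own interval, as for Chac1 (-4.70 against -5.58 to -5.08). These counts therefore do not measure the effect of the processing alone. No paired analysis was possible because each group was 1 library. Depth limits the low genes: Chac1 and Trib3 rested on 137 and 80 localized UMIs and Gfap on 52 control UMIs. Variation between libraries and the part of the device surface could not be measured, and doublets were not scored.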

Other observations

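Genes of the extracellular matrix and adhesion, not described above, had a median log2 ratio of 0.35 over 17 measured of 23, with 2 at least 2-fold higher. Cholesterol and fatty acid synthesis genes had a median of -0.11 over 32 members with 0 past 2-fold, and nucleolar ribosome biogenesis genes 0.13 over 20 with 0 past 2-fold. Of 20 actin cytoskeleton and SRF target genes 18 were measured, with a median of -0.22 and 2 at least 2-fold lower. The lowest, Fhl2 at -1.14, met the minimum in control alone. Of the 17 members present in both libraries 1 was at least 2-fold lower, with a median of -0.21. The small unnamed cluster led by Rdh5 held 0.857% of localized cells (exact binomial interval 0.645 to 1.12) and 0.131% of control cells (0.0567 to 0.259), at median depths of 4291.5 and 3879.5 UMIs.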
